A study of Mus musculus with 76 samples.

Results

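The T cell receptor constant genes encode the parts of the receptor chains that do not vary between T cells: Trac for the alpha chain, Trbc1 and Trbc2 for the beta chain, Tcrg-C1, Tcrg-C2 and Tcrg-C4 for the gamma chain and Trdc for the delta chain. Members were taken by name, by matching their Ensembl identifiers to the rows of an expression table of 37980 mouse genes. Of the 7 genes listed, 6 had a row, all 6 passed the filter on low values, and Trdc is not analysed here. RNA was measured in 76 libraries of 1000 sorted cells each, all from C57BL/6 mice, as FPKM, the fragments of a gene scaled by transcript length and by the mapped fragments of the library, and thus a level per length. Natural cells formed 15 groups. From bone marrow (BM) came stem cells of the blood (HSC), multipotent progenitors (MPP), early T progenitors (ETP), pro/pre-B cells and 3 mature types, namely T, B and myeloid cells. From thymus came ETP and thymocytes that were negative for CD4 and CD8 (double negative, stages DN1, DN2, DN3 and DN4), positive for both (double positive, DP) or single positive (SP) for CD4 or CD8. The induced cells fell into 9 groups with the same stage names, BM ETP through CD8 SP. They were sorted from bone marrow or thymus of sublethally irradiated recipients that had received pro/pre-B cells infected in culture with a virus carrying Hoxb5, a homeobox transcription factor gene. The natural groups were of the same strain and are not labelled with virus, transplantation or irradiation, so that the induced and natural groups differed in all 3, and what each contributed cannot be told apart. The recipients' own cells survive in part after sublethal irradiation, and the labels used here do not say how donor cells were told from them. Groups held 2 to 4 libraries, and age was not given in the sources used here.

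An alpha beta T cell receptor is assembled in the thymus by recombination of gene segments. The beta, gamma and delta loci recombine in double negative thymocytes, a beta chain then pairs with the surrogate pre-T alpha chain and drives the cells on to the double positive stage, and the alpha locus recombines there. Transcripts that contain a constant region arise both from rearranged genes and, as germline transcripts, from loci that are not rearranged, so the level of a constant gene is not a count of complete receptors.

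The constant genes of a locus are near copies, and the stretches below show where they can and cannot be told apart. Sequences were taken from the GENCODE vM21 transcripts on GRCm38, which is not the build of the deposited table, and each is given 5′ to 3′ on the strand of the gene. The following bases 230 to 290 of exon 1 (375 bases) hold the single base that separates that exon in Trbc1 from that in Trbc2, in capitals. Counted from the start of the exon it is C260A, with the Trbc1 base first.
Trbc1: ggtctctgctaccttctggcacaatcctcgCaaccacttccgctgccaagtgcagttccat
Trbc2: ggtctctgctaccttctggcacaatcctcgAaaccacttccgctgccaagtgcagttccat
The gamma constant genes differ most in their short middle exons, which encode the connecting piece between the constant domain and the membrane. Exon 2 of Tcrg-C1 is that of Tcrg-C2 with 15 further bases, in capitals, and Tcrg-C4 has 2 middle exons of its own, shown without a marked part.
Tcrg-C1 exon 2: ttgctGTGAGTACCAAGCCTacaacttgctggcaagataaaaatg
Tcrg-C2 exon 2: ttgctacaacttgctggcaagataaaaatg
Tcrg-C4 exon 2: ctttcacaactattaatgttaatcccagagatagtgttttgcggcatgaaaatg
Tcrg-C4 exon 3: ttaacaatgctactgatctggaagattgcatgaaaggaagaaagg
Exon 1 of Trbc1 and Trbc2 was 99.7% identical, that of Tcrg-C1 and Tcrg-C2 97.3%, and that of Tcrg-C4 82.1% identical to Tcrg-C1 and 81.5% to Tcrg-C2. Of all 50-base windows of the Trbc1 transcript, 41.1% also occurred in Trbc2, and 44.0% of those of Trbc2 occurred in Trbc1. For Tcrg-C1 and Tcrg-C2 these shares were 17.9% and 18.2%, and Tcrg-C4 and Trac shared none with any other member. How the deposited counting divided reads that fit both copies was not given in the sources used here. The split between Trbc1 and Trbc2, and between Tcrg-C1 and Tcrg-C2, is therefore uncertain, while Tcrg-C4 and Trac are free of this limit at that window length.

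In GRCm38 the beta constant genes lie on the plus strand of chromosome 6, Trbc1 (ENSMUSG00000076490) at 41538218 to 41539881 and Trbc2 (ENSMUSG00000076498) at 41546730 to 41548352. The gamma constant genes lie on chromosome 13: Tcrg-C1 (ENSMUSG00000076749) at 19214103 to 19217024 and Tcrg-C4 (ENSMUSG00000076757) at 19344558 to 19352756 on the plus strand, and Tcrg-C2 (ENSMUSG00000076752) at 19304649 to 19307551 on the minus strand. Trac (ENSMUSG00000076928) lies on the plus strand of chromosome 14 at 54220521 to 54224206. Each gene is annotated with 1 transcript, of 3 exons in Tcrg-C1 and Tcrg-C2 and of 4 in the other 4.

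Before any comparison the libraries were checked. Pro/pre-B replicates 1 and 3 did not differ in any gene and counted as 1 sample, which left 75 libraries. The table holds no counts; from the steps between its lowest values, 1 FPKM stood for 0.971 to 11.3 fragments per kilobase of transcript, so that a gene listed at 0 was below about 1 fragment. No label says that libraries of 1 group are of different animals, so p-values measure the spread between libraries, which may be technical. Hoxb5 itself ran from 0.0662 to 3.47 FPKM in induced thymic libraries and from 0 to 0.0891 FPKM in natural ones. In bone marrow it was 0.0976 to 0.618 FPKM in induced and 0.185 to 0.404 FPKM in natural ETP. From DN1 to CD8 SP, Xist ran from 4.21 to 16.3 FPKM in induced and from 0 to 1.78 FPKM in natural libraries, while the Y-linked Ddx3y was at most 0.767 FPKM in induced libraries and at least 3.71 FPKM in natural ones other than 1 DN2 library at 0.325 FPKM, so that the source of the cells and sex cannot be told apart at these stages. Natural ETP of both sites had Ddx3y listed at 0 and induced thymic ETP had 2.65 to 4.38 FPKM. Xist was 6.735 and 7.955 FPKM in natural and 2.445 to 5.28 FPKM in induced thymic ETP. Steps from natural thymic ETP to DN1 or DN2 thus cross a difference in these sex-linked genes. So do steps to or from induced thymic ETP, and the interactions built on such steps. What sex contributed to them cannot be told apart.

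RNA of the constant genes was at or near 0 outside the T lineage. Pro/pre-B and mature B libraries were listed at 0 for all 6 genes, and in HSC, MPP and mature myeloid cells no library passed 4 FPKM of any of them. The largest of these values was Trac in 1 of 2 myeloid libraries, 0 and 3.91 FPKM. Mature T cells of bone marrow had 469, 454 and 319.8 FPKM of Trac, 993, 926 and 896 FPKM of Trbc1 and 2399, 2401 and 2331 FPKM of Trbc2. Their gamma constant genes were far lower, with 2.63, 14.8 and 17.4 FPKM of Tcrg-C1, 2.77, 34.3 and 38.7 FPKM of Tcrg-C2 and 6.17, 28.6 and 10.8 FPKM of Tcrg-C4. Every mature T library lay above every mature B and myeloid library for each gene. In sorted pools such as these, fewer cells that carry an RNA and less of that RNA per cell cannot be told apart. Where libraries are said not to overlap, here and below, the share of all genes that did the same was not counted. Small groups can stay apart by chance. A value counts as changed below when its Benjamini-Hochberg adjusted p, over 17416 genes in limma's two-sided test of log2(FPKM + 1), was under 0.05. By that rule all 6 genes were higher in mature T than in mature B cells, where 23.9% of all genes changed, and than in myeloid cells, where 45.9% did. Against myeloid cells the calls of Tcrg-C1 and Tcrg-C2 were lost when these groups made up the fit by themselves (adjusted p = 0.0826 and 0.12).

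**Figure D1:**
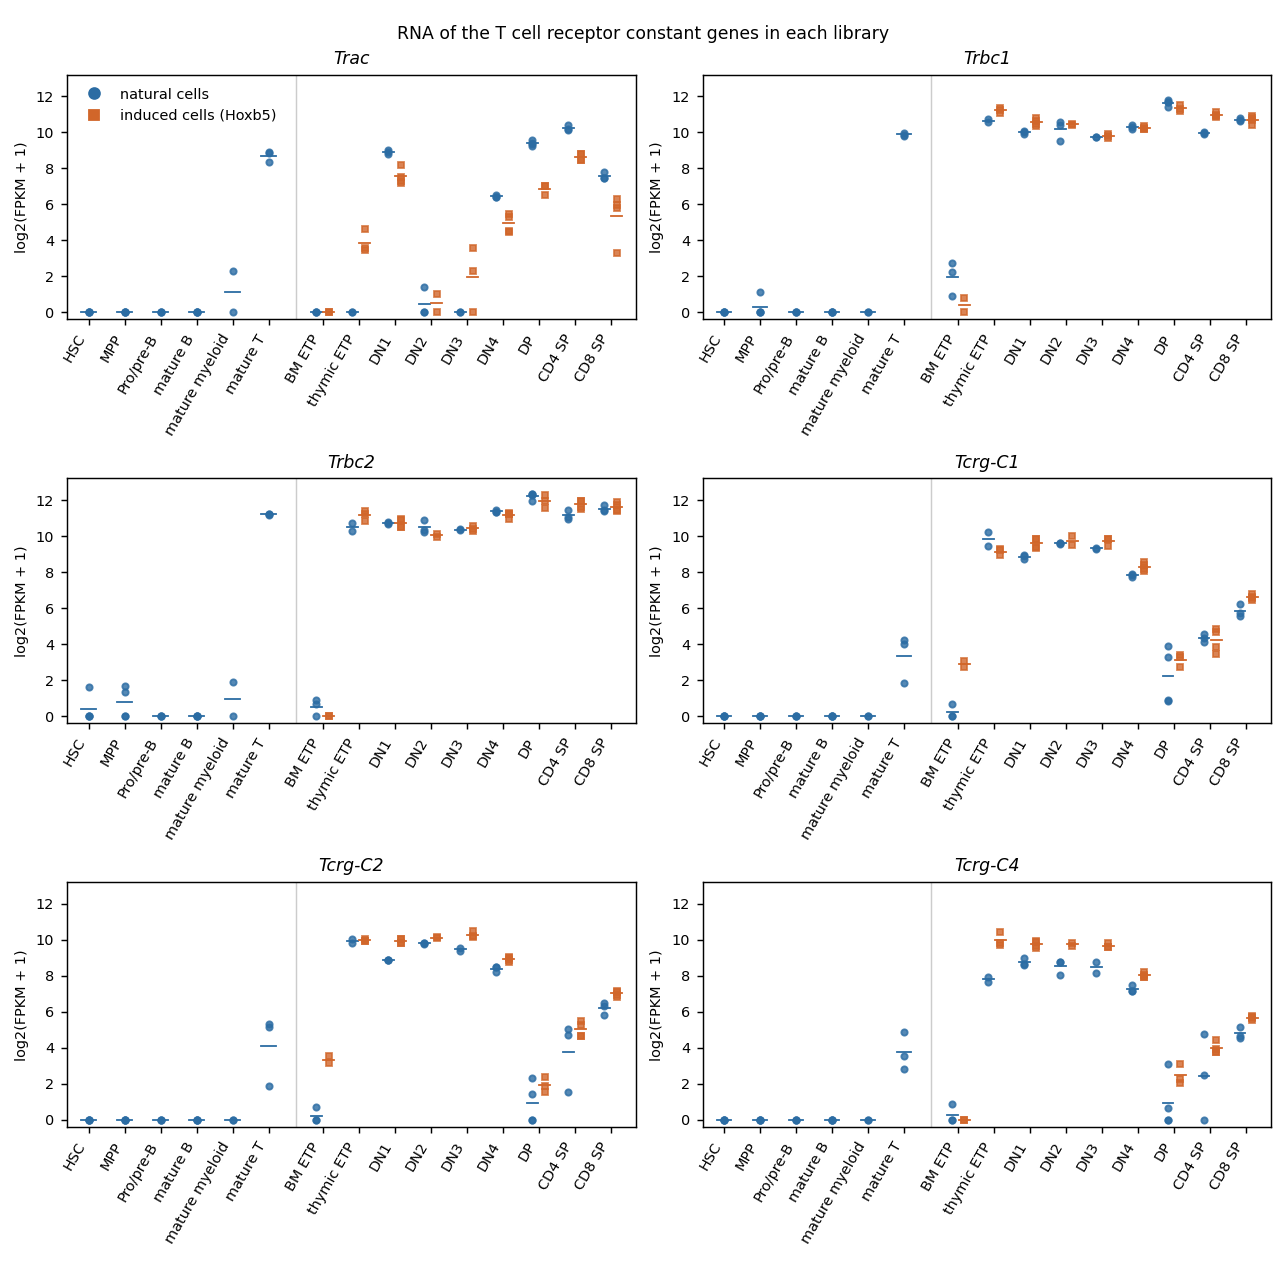
Level of each constant gene, as log2(FPKM + 1), in every library of the 24 groups; points are libraries (blue circles natural, orange squares induced) and short lines are group means of the plotted values. Both beta genes are high in every thymic group from ETP on, the 3 gamma genes are high up to DN4 and low in DP, and Trac is high in DN1, low in DN2 and DN3 and high again from DP on.

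Beta constant RNA was near its floor in natural BM ETP and high in natural thymic ETP. Trbc1 read 0.886, 5.67 and 3.66 FPKM in the 3 BM ETP libraries and 1677 and 1524 FPKM in the 2 thymic ETP libraries. Trbc2 was at 0 to 0.858 FPKM in the former and 1675 and 1256 FPKM in the latter. The gamma genes showed the same arrangement: Tcrg-C1 was 0, 0 and 0.597 FPKM in BM ETP and 1178 and 701 FPKM in thymic ETP, and Tcrg-C4 was 0, 0 and 0.835 FPKM and 245 and 201 FPKM. Trac was listed at 0 in all 5 libraries. Between the ETP of the 2 sites 5 of 6 genes rose, where 14.5% of all genes changed, by 7.51 (Tcrg-C4) to 9.98 (Trbc2) on the log2(FPKM + 1) scale. In BM ETP, Trbc1 was already above MPP (difference 1.68 ± 0.22 (SE), adjusted p = 7.59e-09), the single member of 6 to change there (27.8% of all genes), a call lost with these groups fitted alone (adjusted p = 0.0717). The bone marrow ETP libraries held 25844 to 38712 FPKM of 8 myeloid markers, with all 8 at 1 FPKM or more, and 0.380 to 1.22 FPKM of 6 T cell markers; their part in the levels was not tested.

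From thymic ETP to DN2 and on to DN3, no change of a constant gene passed the test. Trbc1 was 1541, 1364 and 724 FPKM in DN2 and 848 and 857 FPKM in DN3, and Trbc2 1289, 1877 and 1196 and 1288 and 1316 FPKM. Tcrg-C1 was 793, 762 and 771 FPKM in DN2 and 627 and 648 FPKM in DN3. None of the 6 genes changed from thymic ETP to DN2 (6.67% of all genes did) or from DN2 to DN3 (1.56%), and in limma none had a p under 0.05 before adjustment in either step. With 2 or 3 libraries a group, the approximate 95% interval of the Tcrg-C4 difference between DN2 and thymic ETP was -0.43 to 1.91 on the log2 scale. A change within that interval is therefore not excluded.

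Natural DN1 cells departed from this order most in Trac. Trac was 476, 438 and 514 FPKM in DN1, against 0 in both thymic ETP libraries, 0, 0 and 1.63 FPKM in DN2 and 0 in both DN3 libraries. Every DN1 library therefore stood above every library of the stages on either side. From DN1 to DN2 Trac fell by 8.43 ± 0.49 (SE) on the log2 scale (adjusted p = 1.85e-21), and it was the single member to change in that step (26.4% of all genes) and in the step from thymic ETP to DN1 (26.2%, adjusted p = 4.00e-20). In the latter step Trbc1 also passed with equal library totals (0.0205), with quantile normalization (0.0126) and with these groups fitted alone (0.0267), Tcrg-C1 with quantile normalization (0.0485) and Tcrg-C2 with these groups alone (0.0108). From DN1 to DN2, Tcrg-C1 and Tcrg-C2 passed with these groups alone (0.00291 and 0.000259). Both genes were lower in every DN1 library than in every library of the stages on either side: Tcrg-C1 was 428 to 484 FPKM in DN1, 701 to 1178 FPKM in thymic ETP and 762 to 793 FPKM in DN2. Tcrg-C2 was 474 to 477 FPKM in DN1, 905 to 1044 FPKM in thymic ETP and 861 to 917 FPKM in DN2. The DN1 libraries differed from their neighbours in other markers as well. Ptcra, which encodes pre-T alpha, was listed at 0 in all 3 libraries, Rag1, a subunit of the recombinase, was at most 0.117 FPKM, and the natural killer list summed to 4623 to 5401 FPKM with 10 of 10 markers at 1 FPKM or more and none at 0. The same list summed to 761 to 831 FPKM in thymic ETP and 942 to 1810.0 FPKM in DN2. Of 9 gamma delta and innate-like genes all 9 reached 1 FPKM in every DN1 library, among them Zbtb16, a transcription factor of innate-like T cells, at 1.41 to 2.06 FPKM. The part of such cells in the Trac level was not tested.

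Trac reappeared in DN4, and DN4 to DP was the single natural step at which all 6 genes changed. Trac was 89.8, 82.4 and 84.5 FPKM in DN4 and 609, 648, 756 and 671 FPKM in DP. Tcrg-C2 went the other way, from 295, 363 and 362 FPKM in DN4 to 4.12, 0, 1.73 and 0 FPKM in DP, and no library of one group overlapped the other for either gene. All 6 genes changed, where 24.6% of all genes did. Trac rose by 2.95 ± 0.46 (SE), Trbc1 by 1.35 ± 0.22 (SE) and Trbc2 by 0.86 ± 0.30 (SE) on the log2 scale. Tcrg-C1 fell by 5.58 ± 0.39 (SE), Tcrg-C2 fell by 7.46 ± 0.47 (SE) and Tcrg-C4 fell by 6.33 ± 0.50 (SE). From DN3 to DN4 2 of 6 changed (6.72% of all genes): Trac, which was listed at 0 in DN3 (adjusted p = 4.04e-13), and Tcrg-C1 (difference -1.51 ± 0.47 (SE), adjusted p = 0.0366). Trbc2 passed with quantile normalization (0.0243) and the replicate block (0.044), at 1288 to 1316 FPKM in DN3 and 2562 to 2774 FPKM in DN4, and 5 of 6 members had a p under 0.05 before adjustment. The Tcrg-C1 call was lost without any 1 of the 2 DN3 and 3 DN4 libraries, with a pseudocount of 0.1 and with these groups fitted alone (adjusted p = 0.0709 to 0.201), the Trac call with these groups alone (0.0723), and that of Trbc2 from DN4 to DP with a pseudocount of 0.1 and without DN4 replicate 1, 2 or 3 or DP replicate 1 or 2 (0.0523 to 0.482). In the same DN4 to DP step, 3 of 3 genes of the recombination list (Rag1, Rag2 and Dntt) rose.

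After DP the 2 single positive groups diverged in Trac. CD4 SP had 1146, 1105 and 1333 FPKM, the highest of the 24 groups, and CD8 SP had 173, 219.6 and 175 FPKM, below every DP library. Against CD4 SP, Trac in CD8 SP differed by -2.66 ± 0.49 (SE), adjusted p = 2.97e-05. The gamma genes lay the other way round: Tcrg-C1 was 19.1, 16.4 and 22.4 FPKM in CD4 SP and 51.6, 73.6 and 46.5 FPKM in CD8 SP, and Tcrg-C2 was 31.9, 1.91 and 25.6 and 78.1, 89.4 and 56.1 FPKM. All CD8 SP libraries were above all CD4 SP libraries for Tcrg-C1 and Tcrg-C2. In all, 5 of 6 genes differed between CD8 and CD4 SP (22.7% of all genes), the exception being Trbc2 (difference 0.37 ± 0.32 (SE), adjusted p = 0.485), which passed with quantile normalization (0.0464). The Trbc1 call ended with a pseudocount of 0.1 and without CD4 SP replicate 3 or CD8 SP replicate 2 (0.0526 to 0.327), that of Tcrg-C4 without CD4 SP replicate 3 (0.0679), and those of Tcrg-C2 and Tcrg-C4 with these groups fitted alone (0.31 and 0.41). From DP, 5 of 6 genes changed to CD4 SP (26.7% of all genes) and 5 of 6 to CD8 SP (23.9%). Both beta genes fell and the 3 gamma genes rose on the way to CD4 SP. Trac did not pass there, although every CD4 SP library lay above every DP library, and it passed with these groups alone (0.0103). On the way to CD8 SP the gamma genes rose, Trac and Trbc1 fell, and Trbc2 passed with quantile normalization (0.000484), with the replicate block (0.0472) and with these groups alone (0.038) but not in the fit used here. To CD4 SP the call of Tcrg-C4 was lost without DP replicate 1, 2 or 3 or CD4 SP replicate 1 or 2 and with these groups fitted alone (adjusted p = 0.0503 to 0.81), those of Tcrg-C1 and Tcrg-C2 with these groups alone (0.291 and 0.255) and that of Trbc2 with a pseudocount of 0.1 (0.328). To CD8 SP the calls of Trac and Trbc1 were lost with that pseudocount (0.115 and 0.133) and those of Tcrg-C1 and Tcrg-C4 with these groups alone (0.0755 and 0.0532). The natural CD8 SP libraries also held 27.6 to 38.9 FPKM of Rag1 and 27.2 to 55.2 FPKM of Ptcra, against 1.02 to 9.22 and 0 to 5.80 FPKM in CD4 SP, and their part in the difference was not tested. Mature T cells of bone marrow, which carried both Cd4 (43.5 to 67.3 FPKM) and Cd8a (278 to 310.4 FPKM), had less Trac than CD4 SP (difference -1.54 ± 0.49 (SE), adjusted p = 0.021), and no other member changed there (18.3% of all genes), although Tcrg-C1 passed with equal library totals (0.0367). Single libraries decided the gamma genes there: Tcrg-C1 passed without mature T replicate 2 (0.0422) or 3 (0.0233), Tcrg-C2 without mature T replicate 1 (0.0266), and Tcrg-C4 without mature T replicate 1 (0.03) or CD4 SP replicate 1 (0.0001). The Trac call was lost in 4 of 11 alternatives (0.057 to 0.268), among them without mature T replicate 3 (0.0845) and without CD4 SP replicate 3 (0.057).

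Induced cells showed a similar arrangement of levels along most of their stages. In induced BM ETP Trac, Trbc2 and Tcrg-C4 were listed at 0 in both libraries and Trbc1 read 0 and 0.703 FPKM. In induced thymic ETP Trbc1 was 2377, 2143 and 2628 FPKM, Trbc2 2676, 1795 and 2407 FPKM and Tcrg-C4 902, 826 and 1382 FPKM. All 6 genes rose between these groups, where 31.0% of all genes changed. From induced DN4 to induced DP 5 of 6 changed (19.6% of all genes): Trac rose by 1.91 ± 0.46 (SE) and Trbc1 by 1.09 ± 0.22 (SE), while Tcrg-C1 fell by 5.16 ± 0.39 (SE), Tcrg-C2 fell by 6.99 ± 0.47 (SE) and Tcrg-C4 fell by 5.56 ± 0.50 (SE). Trbc2 had a difference of 0.78 ± 0.30 (SE), adjusted p = 0.0562, and passed with equal library totals (0.00785) and quantile normalization (1.94e-07). With a pseudocount of 0.1 the calls of Trac and Trbc1 were lost (0.106 and 0.0864). The induced DN1 libraries, like the natural ones, had more Trac than the stages on either side, 158, 145, 181 and 293 FPKM against 10.0, 10.8 and 23.2 FPKM in induced thymic ETP and 0 and 1.03 FPKM in induced DN2. Trac fell by 7.04 ± 0.52 (SE) from induced DN1 to DN2 and was the single member of 6 to change there (9.43% of all genes), with Trbc2 passing under quantile normalization (0.0324). Unlike in natural cells, where they overlapped, both beta genes were lower in every induced DN2 than in every induced thymic ETP library. Trbc1 was 1399 and 1367 FPKM and Trbc2 1125 and 999 FPKM in induced DN2. From induced DP to induced CD4 SP neither beta gene passed as lower in the fit used here, whereas both fell in natural cells. Trbc1 passed in that induced step with quantile normalization (0.0212). In induced CD8 SP Trac was below induced CD4 SP (difference -3.27 ± 0.43 (SE), adjusted p = 8.02e-08) and the 3 gamma genes were above it, so 4 of 6 differed (7.53% of all genes). The calls of Tcrg-C2 and Tcrg-C4 were lost with a pseudocount of 0.1 (0.0559 and 0.239), and Trbc1 passed with quantile normalization (0.0156).

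Over all steps tested, 32 of 78 tests of a member passed in natural cells (21 rises and 11 falls), where 18.0% of the tests of all genes passed. In induced cells 34 of 66 passed (21 rises and 13 falls), where 14.7% of the tests of all genes did. With a pseudocount of 0.1 the induced count was 21. Of the 13 natural steps Trac changed in 7 and Trbc2 in 3, and of the 11 induced steps they changed in 9 and 2.

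At matched stages, Trac was the member called most often between induced and natural cells in the fit over all groups. Of 54 tests, 6 genes at 9 stages, 14 passed, 9 with induced cells higher and 5 lower, where 12.4% of the tests of all genes passed. Trac took 6 of the 14, Tcrg-C4 3, Trbc1 and Tcrg-C2 2 each and Tcrg-C1 1. With a pseudocount of 0.1, 9 of 54 passed, 3 of them Trac and 2 each Tcrg-C2 and Tcrg-C4. With only the compared groups in each fit Trac and Tcrg-C4 passed at 3 stages each. Trbc2 passed at none of the 9 stages. At a p under 0.05 before adjustment Trbc2 passed at 1 of them, and with other scalings it passed at CD4 SP (adjusted p = 0.0116 with equal library totals and 8.34e-05 with quantile normalization). Its largest difference in size among the thymic stages was 0.64 ± 0.36 (SE), adjusted p = 0.339 in thymic ETP, with an approximate 95% interval of -0.06 to 1.34.

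**Figure D2:**
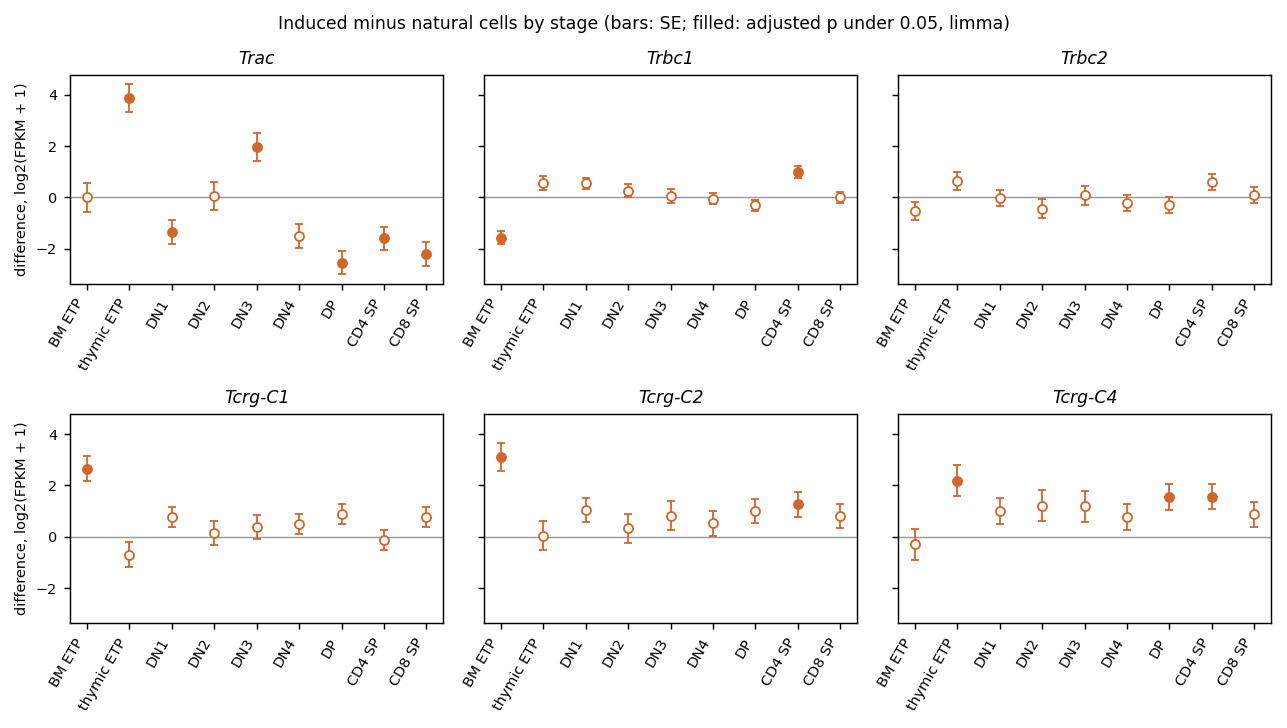
Difference between induced and natural cells at each of 9 stages, in log2(FPKM + 1), with bars of 1 SE; filled points had an adjusted p under 0.05 in limma. Trac is below 0 at DN1, DN4, DP, CD4 SP and CD8 SP and above 0 in thymic ETP and DN3, where the natural libraries were listed at 0, and Trbc2 has no filled point.

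In DP, natural cells had 609, 648, 756 and 671 FPKM of Trac and induced cells 128, 128 and 90.4 FPKM. Every induced library was below every natural one, and the difference of -2.54 ± 0.46 (SE) (adjusted p = 7.72e-05; 10.4% of all genes changed) passed under each of 13 alternative settings. The beta genes of the same libraries overlapped between the sources: Trbc1 was 3294, 2682, 3497 and 3251 FPKM in natural and 2964, 2485 and 2308 FPKM in induced DP, a difference of -0.30 ± 0.22 (SE), adjusted p = 0.49. Of the 5 genes for CD3 chains and pre-T alpha none changed in DP, and their median difference was -0.26 against 0.00 over all genes. Tcrg-C4, at 0, 0.558, 0 and 7.77 FPKM in natural and 3.88, 3.15 and 7.55 FPKM in induced DP, passed with overlapping libraries (difference 1.54 ± 0.50 (SE), adjusted p = 0.0355). That call was lost with these groups fitted alone and without DP replicate 1, 2 or 3 or induced DP replicate 1 or 3 (adjusted p = 0.061 to 0.684). Tcrg-C1 passed without DP replicate 1 (0.0339) or 2 (0.00522), and Tcrg-C2 without DP replicate 1 (0.0386) and with a pseudocount of 0.1 (0.0196).

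In CD4 SP, induced cells had 356, 343, 447 and 439.5 FPKM of Trac, all below the natural 1146, 1105 and 1333 FPKM (difference -1.59 ± 0.46 (SE), adjusted p = 0.00629). Trbc1 moved the opposite way, with 2187, 1836, 1970.0 and 1941 FPKM in induced libraries, all above the natural 995, 1047 and 945 FPKM (difference 0.99 ± 0.22 (SE), adjusted p = 2.89e-04). Tcrg-C2 and Tcrg-C4 were also higher in the fit (adjusted p = 0.0398 and 0.0131), but their libraries overlapped, with Tcrg-C4 at 12.8, 12.7, 14.4 and 20.9 FPKM in induced and 26.4, 4.57 and 0 FPKM in natural CD4 SP. In all 4 of 6 genes changed, where 26.4% of all genes did, a share that the members' count has to be read against. With a pseudocount of 0.1 the calls of Trac and Trbc1 were lost (adjusted p = 0.174 and 0.105), that of Tcrg-C2 was lost in 7 of 13 alternatives (0.0545 to 0.997), among them without CD4 SP replicate 2 (0.997) and without induced CD4 SP replicate 1 (0.0869) or 4 (0.113), and that of Tcrg-C4 in 2, without CD4 SP replicate 3 (0.697) and with these groups fitted alone (0.489). Other T cell genes were lower with Trac in induced CD4 SP: of the CD3 and pre-T alpha list 3 of 5 were lower (Cd3d, Cd3e and Cd3g) and Ptcra was higher, with a median difference of -0.64, and 5 of 6 T cell markers, a list that shares 4 genes with it, were lower (median -1.23), against 0.00 over all genes. Genes of earlier stages stood high in the same induced libraries. Rag1 was 65.1 to 101 FPKM against 1.02 to 9.22 FPKM in natural CD4 SP, Ptcra 43.3 to 71.6 against 0 to 5.80 FPKM and Cd8b1 115 to 148 against 33.8 to 65.8 FPKM. Of the recombination list 3 of 3 were higher in induced CD4 SP (median difference 5.64 against 0.00 over all genes). The recombination list summed to 1227 to 1562 FPKM there, against 22.3 to 34.7 FPKM in natural CD4 SP and 1316 to 1566 FPKM in natural DP, and the part of less mature cells in the receptor levels was not tested.

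In CD8 SP, Trac was 173, 219.6 and 175 FPKM in natural and 78.5, 8.89, 61.9 and 55.3 FPKM in induced libraries. All 4 induced values lay below all natural ones, replicate 2 furthest. Trac was the single member of 6 to change (difference -2.21 ± 0.46 (SE), adjusted p = 3.73e-04; 10.6% of all genes). A pseudocount of 0.1 ended the call (adjusted p = 0.0814), as did a fit of these groups alone (0.176), where Tcrg-C4 passed (0.0314), and without induced replicate 2 the difference was -1.53 (0.0128). The gamma genes lay the other way, higher in every induced than in every natural library, although none passed in the fit used here. The share of all genes apart in this way was not counted. Tcrg-C1 was 86.2 to 109 FPKM in induced and 46.5 to 73.6 FPKM in natural CD8 SP, Tcrg-C2 115 to 145 and 56.1 to 89.4 FPKM, and Tcrg-C4 46.7 to 52.9 and 22.8 to 35.4 FPKM. Trbc1 was 1612, 1780.0 and 1550.0 FPKM in natural and 1798, 1919, 1327 and 1652 FPKM in induced CD8 SP, overlapping, with an approximate 95% interval of -0.42 to 0.44 for the log2 difference. Of 10 natural killer markers 7 were lower in induced CD8 SP, and the list summed to 752 to 963 FPKM there and 985 to 1187 FPKM in natural CD8 SP, with 4 markers at 0 in every induced library and none in every natural one. Their part in the Trac difference was not tested.

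Among double negative cells, induced DN1 had 158, 145, 181 and 293 FPKM of Trac, all below the natural 476, 438 and 514 FPKM (difference -1.34 ± 0.46 (SE), adjusted p = 0.0319). This was 1 of 6 members to change (18.8% of all genes), and the call ended with a pseudocount of 0.1 and without any 1 of the 3 natural libraries or induced replicate 1, 2 or 3 (adjusted p = 0.0581 to 0.317). Trbc1 passed with equal library totals (0.0285), quantile normalization (0.00267) and these groups alone (0.0332), where the 3 gamma genes passed too (0.00109 to 0.0306). The natural killer list summed to 1977 to 2508 FPKM in induced and 4623 to 5401 FPKM in natural DN1, with 9 of 10 markers lower. Of the gamma delta and innate-like list, 4 of 9 were higher (Cd163l1, Id3, Maf and Sox13) and Il23r was lower in induced DN1. The part of either list was not tested. The gamma constant genes were higher in every induced than in every natural DN1 library, Tcrg-C1 at 654 to 922 against 428 to 484 FPKM, Tcrg-C2 at 908 to 1071 against 474 to 477 FPKM and Tcrg-C4 at 739 to 993 against 395 to 500.1 FPKM. In DN4, Trac was 43.5, 37.4, 21.9 and 21.4 FPKM in induced and 89.8, 82.4 and 84.5 FPKM in natural libraries, again without overlap, but the difference of -1.50 ± 0.46 (SE) did not pass (adjusted p = 0.137), and none of the 6 genes did (0.741% of all genes). In that stage Tcrg-C4 passed with these groups alone (0.0408). The 3 gamma genes were higher in every induced DN4 library, with Tcrg-C1 at 263 to 379 against 209 to 237 FPKM, Tcrg-C2 at 439.7 to 537 against 295 to 363 FPKM and Tcrg-C4 at 241 to 291 against 144 to 176 FPKM. No member changed in DN2 either (1.50%). Tcrg-C1 overlapped there, at 731 and 1005 FPKM in induced and 762 to 793 FPKM in natural DN2, while Tcrg-C2 and Tcrg-C4 were higher in every induced library. Before adjustment, 1 of 6 members in DN2 and 1 of 6 in DN4 had a p under 0.05. In DN3 Trac passed (adjusted p = 0.0302), with 11.1, 3.97 and 0 FPKM in induced libraries and 0 in both natural ones, so 1 induced library overlapped them. It was the single member of 6 to change (3.54% of all genes), and the call was lost without either natural library, without induced replicate 1 or 2 and with these groups alone (0.0989 to 0.881). The 3 gamma genes listed did not pass in DN3, but each was higher in all 3 induced libraries than in both natural ones. The share of all genes apart in this way was not counted at DN1, DN3 or DN4. These 3 genes also correlated at 0.976 to 0.993 over the group means, so they are not separate observations. Tcrg-C1 was at 689.5 to 921 against 627 to 648 FPKM, Tcrg-C2 at 1162 to 1450.0 against 667 to 756 FPKM and Tcrg-C4 at 774 to 897 against 289.8 to 439.6 FPKM. Tcrg-C3, a gamma constant gene that is not a listed member, passed in DN3 (difference 2.08 ± 0.50 (SE), adjusted p = 0.00924). It was 37.9 to 73.25 FPKM in induced and 10.25 to 15.4 FPKM in natural DN3. Tcrg-C3 also passed in DN1 (difference 1.19 ± 0.42 (SE), adjusted p = 0.0354), but not in thymic ETP or DN2. Its sequence was not compared with those of the listed gamma genes, and the part of reads shared with them was not tested.

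At the ETP stages the differences ran in several directions. In thymic ETP, Trac was 10.0, 10.8 and 23.2 FPKM in induced cells and listed at 0 in both natural libraries (adjusted p = 5.22e-07), and Tcrg-C4 was 902, 826 and 1382 FPKM in induced and 245 and 201 FPKM in natural cells (difference 2.18 ± 0.60 (SE), adjusted p = 0.0116). No library overlapped for either gene, and these 2 of 6 genes changed (8.27% of all genes). Tcrg-C1 lay the other way without passing, at 487 to 611 FPKM in induced and 701 to 1178 FPKM in natural thymic ETP. Tcrg-C2 overlapped, at 984 to 1058 and 905 to 1044 FPKM. The Trac call was lost with these groups fitted alone (adjusted p = 0.192). The Tcrg-C4 call was lost there, with a pseudocount of 0.1, without either natural library and without induced replicate 3 (0.0518 to 0.248). In the same comparison 4 of the 5 genes for CD3 chains and pre-T alpha were lower in induced cells, with a median difference of -4.13 against 0.00 over all genes. Cd3g was 37.3 to 58.6 FPKM against 749 to 1073 FPKM, and Ptcra was listed at 0 in all induced libraries against 14.5 to 20.9 FPKM.

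In BM ETP, induced cells had more RNA of 2 gamma genes and less of Trbc1. Tcrg-C1 was 7.38 and 5.50 FPKM in induced and 0, 0 and 0.597 FPKM in natural libraries (difference 2.66 ± 0.47 (SE), adjusted p = 5.69e-06), and Tcrg-C2 was 7.81 and 10.9 and 0, 0.650 and 0 FPKM (difference 3.11 ± 0.56 (SE), adjusted p = 9.56e-06). Trbc1 differed by -1.57 ± 0.26 (SE), adjusted p = 1.70e-06, a call lost with these groups fitted alone (0.221). Libraries of the 2 sources overlapped for none of these 3 genes, and 3 of 6 members changed (31.1% of all genes). Tcrg-C1 and Tcrg-C2 were also higher than in the sequenced pro/pre-B libraries, which were listed at 0 for both (adjusted p = 3.32e-06 and 6.69e-06; 2 of 6 members, 15.5% of all genes), calls lost with these groups alone (0.169 and 0.155). Those pro/pre-B libraries had Xist at 0 and Ddx3y at 14.3 to 20.2 FPKM. Induced BM ETP had Xist at 8.65 and 10.4 FPKM and Ddx3y at 0. Sex and induction thus cannot be told apart in this contrast. The induced BM ETP libraries held 8093 to 8571 FPKM of 9 B cell markers, with 8 of 9 at 1 FPKM or more and none listed at 0 in both, against 70.4 to 88.4 FPKM in natural BM ETP and 8352 to 9082 FPKM in pro/pre-B cells. Of the 6 T cell markers 4 were at 0 in both induced libraries and the list summed to 0.275 to 1.97 FPKM. The label of induced BM ETP thus stands beside B-lineage markers at the level of pro/pre-B cells, and their part in the gamma levels was not tested.

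The changes between stages were compared between the sources with an interaction term, in 42 tests, of which 8 passed (7.84% of the tests of all genes did). The step from BM to thymic ETP held 5 of them (25.0% of all genes). Trbc1 rose more in induced cells, by a further 2.14 ± 0.37 (SE), adjusted p = 5.28e-06 (0.086 with these groups alone), and Tcrg-C1 and Tcrg-C2 rose less. Trbc1 in BM ETP was 0 and 0.703 FPKM in induced and 0.886, 5.67 and 3.66 FPKM in natural libraries. The size of its interaction thus depends on the pseudocount. From DP to CD4 SP, Trbc1 fell in natural cells (-1.67 ± 0.22 (SE)) and had a difference of -0.38 ± 0.22 (SE) in induced cells, and the interaction passed (1.29 ± 0.31 (SE), adjusted p = 0.00151; 1 of 6 members, 17.3% of all genes), but not with a pseudocount of 0.1 (0.179). The rise of Trac from DN4 to DP did not pass as different between the sources (interaction -1.04 ± 0.65 (SE), adjusted p = 0.632; 0 of 6 members, 1.10% of all genes, and 0 of 6 with a p under 0.05 before adjustment).

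Ratios within a library do not depend on its scaling, and they separated the sources at several stages. They are given without a test. Trac as a percentage of the summed FPKM of Trbc1 and Trbc2 was 34.7 to 38.6% in natural and 5.80 to 8.63% in induced CD4 SP. In DP it was 7.23 to 10.2% and 1.61 to 1.99%, in CD8 SP 3.54 to 4.90% and 0.154 to 1.71%, in DN4 2.15 to 2.30% and 0.565 to 1.24%, and in DN1 16.2 to 19.2% and 4.91 to 8.42%. At these 5 stages each induced library lay below each natural library of its stage. Induced CD4 SP overlapped natural DP in this ratio.

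**Figure D3:**
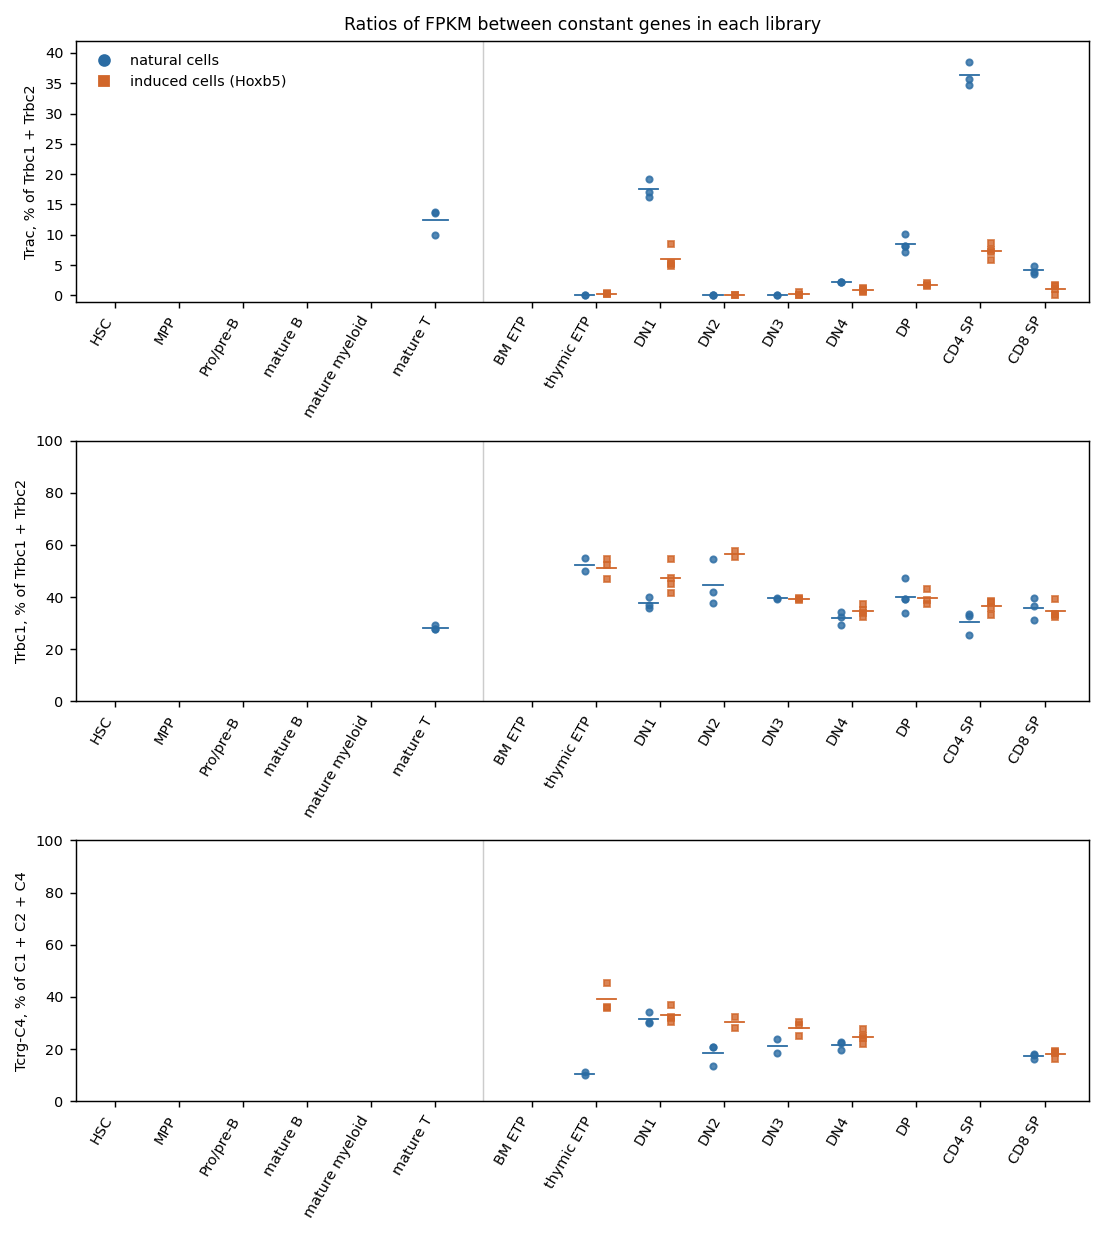
Ratios between constant genes in each library (blue circles natural, orange squares induced, short lines means), shown where the denominator reached 100 FPKM: Trac as % of Trbc1 + Trbc2 (top), Trbc1 as % of Trbc1 + Trbc2 (middle) and Tcrg-C4 as % of the 3 gamma genes (bottom). The natural CD4 SP libraries reach 34.7 to 38.6% in the top panel against 5.80 to 8.63% for induced CD4 SP, and thymic ETP separate by source in the bottom panel.

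The gamma constant sum is that of Tcrg-C1, Tcrg-C2 and Tcrg-C4, without Tcrg-C3. Tcrg-C4 made up 9.94 to 11.1% of this sum in natural thymic ETP and 35.9 to 45.4% in induced thymic ETP. In DN1 they overlapped, at 29.98 to 34.2% and 30.6 to 37.0%. In DN2 the shares were 13.7 to 20.9% and 28.2 to 32.2%, and in DN3 18.3 to 23.8% and 24.9 to 30.2%, apart at both stages, while in DN4 (19.7 to 22.7% and 21.8 to 27.7%) and CD8 SP (16.0 to 18.1% and 16.3 to 19.3%) the ranges overlapped. The share of Trbc1 in the beta sum was 50.03 to 54.8% in natural and 47.0 to 54.4% in induced thymic ETP, and lower in DN4 and mature T cells, at 29.3 to 34.4% and 32.4 to 37.3% in natural and induced DN4 and 27.8 to 29.3% in mature T cells. Because the 2 beta genes share sequence, this share carries the uncertainty described above.

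Variable segments add a view of the loci that the constant genes do not give. The table held 20 beta (Trbv), 6 gamma (Tcrg-V) and 33 alpha (Trav) variable segments with a symbol, and their FPKM were summed in each library. In natural thymic ETP the Trbv sum was 102 to 106 FPKM beside a beta constant sum of 2780.0 to 3352 FPKM, and in induced thymic ETP it was 79.7 to 118 beside 3938 to 5054 FPKM. In DN4 the sums were 3017 to 3837 and 3828 to 3922 FPKM in natural cells and 3243 to 3906 and 3103 to 3785 FPKM in induced cells. High beta constant RNA thus came with little variable segment RNA in thymic ETP of both sources and with similar variable segment sums in DN4. As a percentage of the beta constant sum, the Trbv sum of natural cells was ordered from thymic ETP (3.16 to 3.69%) over DN2 (14.8 to 69.9%) and DN3 (63.3 to 69.5%) to DN4 (77.2 to 98.3%), DN2 and DN3 overlapping. In induced cells it was 1.58 to 3.01%, 15.3 to 27.4%, 56.9 to 90.8% and 91.6 to 109%. Natural DN1, left out of that order, had 30.3 to 34.4%, within the range of DN2. Induced DN1 had 49.5 to 88.0%, above every induced DN2 library and overlapping induced DN3. In CD8 SP the percentage was 28.8 to 36.8% in natural and 65.3 to 102% in induced cells, which did not overlap. For the gamma locus the Tcrg-V sum was 321 to 338 FPKM in natural and 1056 to 1400.0 FPKM in induced DN1, beside gamma constant sums of 1296 to 1461 and 2323 to 2926 FPKM. The Trav sum was 142 to 293 FPKM in natural and 52.9 to 182 FPKM in induced CD4 SP, overlapping, and 91.0 to 329 and 29.1 to 45.0 FPKM in DP, apart. In DN1 it ran opposite to Trac, at 21.6 to 44.4 FPKM in natural and 74.7 to 181 FPKM in induced cells, where Trac was 438 to 514 and 145 to 293 FPKM, and neither overlapped. Segments are short and many are near copies, so these sums compare libraries, and they do not give the fraction of transcripts that carry a variable segment.

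**Figure D4:**
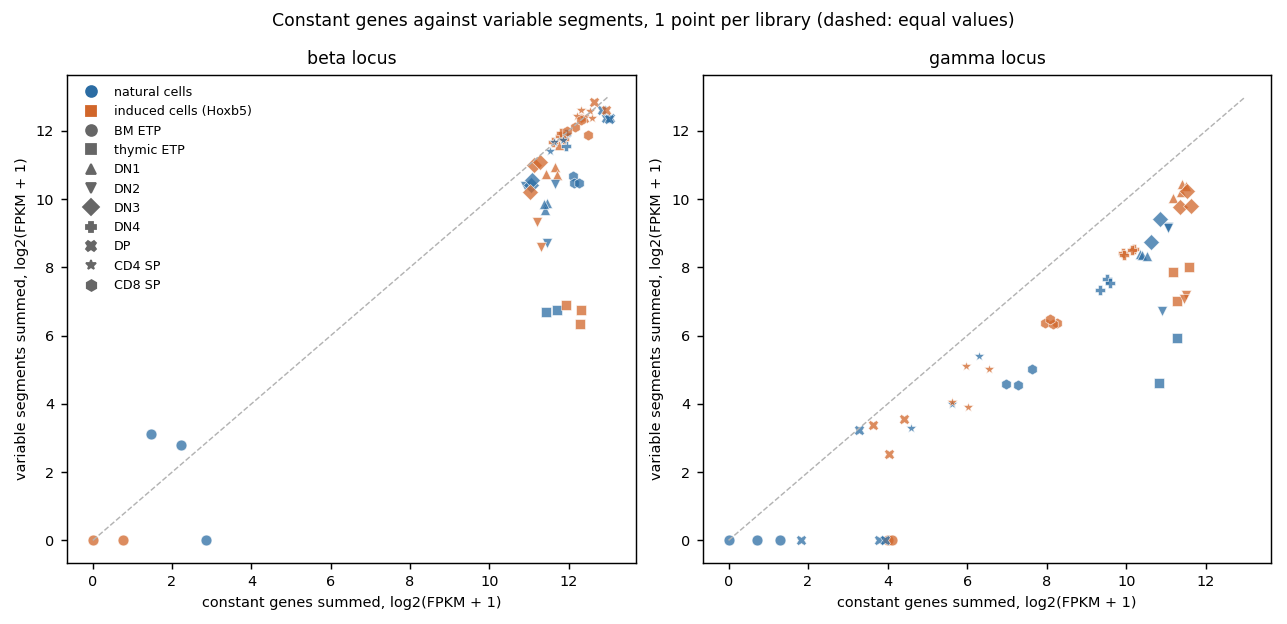
Summed FPKM of variable segments against summed FPKM of constant genes, both as log2(FPKM + 1), for the beta locus (left) and gamma locus (right); each point is 1 library of the 9 stages, marker shape gives the stage and color the source. Thymic ETP of both sources (squares) lie far below the dashed line of equal values in the left panel, at a Trbv sum of 102 to 106 FPKM in natural and 79.7 to 118 FPKM in induced cells, and DN4 libraries lie close to it.

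Ordered by mean FPKM over the 24 groups, Trac ran from CD4 SP (1194) through DP (671), DN1 (476), mature T (415) and induced CD4 SP (396) down to induced DN1 (194), CD8 SP (189), induced DP (115) and DN4 (85.6). Neighbours overlapped for DN1 and mature T, for mature T and induced CD4 SP, and for induced DN1 and CD8 SP, while the others in that stretch did not. Both beta genes were highest in DP (3181 FPKM of Trbc1 and 4827 FPKM of Trbc2) and next in induced DP (2586 and 3983 FPKM), overlapping. The gamma genes differed in their peak. Tcrg-C1 was highest in natural thymic ETP (939.9 FPKM), where induced DN2 overlapped it, Tcrg-C2 in induced DN3 (1261 FPKM), apart from all other groups, and Tcrg-C4 in induced thymic ETP (1037 FPKM), where induced DN1 overlapped it.

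Over the 24 group means of log2(FPKM + 1), the members fell into 3 patterns. Pearson's r was 0.993 between Trbc1 and Trbc2, 0.993 between Tcrg-C1 and Tcrg-C2, and 0.976 and 0.978 between Tcrg-C4 and these. It was 0.640 and 0.682 between Trac and the beta genes and 0.138 to 0.166 between Trac and the gamma genes, while the beta and gamma genes correlated at 0.706 to 0.769. Among 13210 other named genes the most similar to Trac were Txk (0.932), Ampd1 (0.928) and Cd5 (0.921). Bcl11b, a transcription factor of T lineage commitment, was the most similar to both Trbc1 (0.987) and Trbc2 (0.986), followed by Skap1 and Trat1 at 0.979 for Trbc1 and by Cd247 (0.985) and Skap1 (0.982) for Trbc2. For each gamma gene it was Cd163l1, a scavenger receptor gene found in gamma delta T cells (0.940 for Tcrg-C1, 0.945 for Tcrg-C2 and 0.966 for Tcrg-C4). Cd163l1 was 164 to 212 FPKM in induced and 29.9 to 56.5 FPKM in natural thymic ETP, the stage where Tcrg-C4 also differed. Tcrg-C1 and Tcrg-C2 did not pass there. Of the 9 genes of the gamma delta and innate-like list, Cd163l1 alone changed at that stage and 8 did not. The median difference of the list was -0.16, against 0.00 over all genes. These coefficients describe 24 groups that share stages, and they come with no test.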

How the data were processed

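RNA of 1000 sorted cells per library was amplified and tagmented, per the labels' protocols. The deposited values are FPKM of Ensembl genes, and the submitters' processing notes name bcl2fastq, TopHat, Cufflinks 2.2.1, Cuffnorm and the mouse build NCBIM37. Their parameters, the annotation and the library normalization were not given in the sources used here. Cuffnorm values can move with all of these, and with how reads shared between near copies were divided. Symbols came from GENCODE vM21 (GRCm38), which matched 32916 of 37980 identifiers (86.7%).

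Groups came from the labels. Pro/pre-B replicate 3 repeated replicate 1 and was left out, leaving 75 libraries in 24 groups. Totals ran from 667660 to 2004005 FPKM. Depth was placed from low values of 4285 genes with 1 transcript of at least 1000 bases, 73.6% to 93.6% of which lay within 0.2 of a whole number of fragments per library (median 4.25 fragments per FPKM and kilobase).

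The 17416 genes that reached 1 FPKM in 2 libraries or more were kept. Values were transformed as log2(FPKM + 1), with a pseudocount of 1, which understates the change of low genes. Differences came from limma 3.58.1 (R 4.3.3), in 1 fit over the 75 libraries with a mean for each group, a trended and robust prior and 51 residual degrees of freedom. There were 43 comparisons. Tests were two-sided, with Benjamini-Hochberg adjustment over all kept genes of a comparison and a threshold of 0.05. Approximate 95% intervals use the normal approximation to the SE. Tables, sequences and figures were made in Python 3.11.15 (pandas 2.3.3, Biopython 1.88, matplotlib 3.10.9).

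The genes named are the members, Hoxb5, Tcrg-C3, fixed lists and, for each member, the 3 named genes of highest Pearson correlation over group means. The lists are CD3 and pre-T alpha, proximal signaling, recombination, coreceptors, gamma delta and innate-like, and markers of 6 cell types. The result of the gamma delta and innate-like list from DN4 to DP is not reported here. Xist and Ddx3y were chosen after their values were seen. Members and lists were chosen with earlier results of these data known. Alternatives were a pseudocount of 0.1, no filter, equal library totals, quantile normalization, a fit of the compared groups alone, a replicate block and leaving out each library in turn.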

Additional observations from a re-analysis of the deposited data

Results flagged for a closer look

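Groups of 4 libraries were searched for 1 library far from the other 3. For normally distributed values chance alone sets 1 apart in about 1 in 20 groups. That rate does not hold at the floor, so the count below cannot be set against it. With 3 libraries listed at 0, any value above 0 in the other 1 is flagged. Of 33 combinations of a gene and a group, 4 were flagged. They were Trbc1 in MPP, where 1 library read 1.16 FPKM and the other 3 were listed at 0, Trbc2 in HSC, where 1 read 2.08 FPKM and the other 3 were at 0, Trbc2 in natural DP, where replicate 3 read 3909 FPKM, below the others, and Tcrg-C4 in natural DP, where replicate 4 read 7.77 FPKM, above the others.

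The change of a member between 2 stages differed between induced and natural cells in 8 of 42 tests of an interaction term. Values are the induced step minus the natural step on the log2(FPKM + 1) scale, with limma's adjusted p. From BM to thymic ETP they were 3.87 for Trac (8.47e-05; the natural libraries were listed at 0 in both groups), 2.14 for Trbc1 (5.28e-06), -3.35 for Tcrg-C1 (6.25e-05), -3.06 for Tcrg-C2 (0.0024) and 2.47 for Tcrg-C4 (0.0236). The Tcrg-C4 call was lost in 6 of 16 alternatives (0.0579 to 0.11): with a pseudocount of 0.1 and without natural BM ETP replicate 3, natural thymic ETP replicate 2, either induced BM ETP library or induced thymic ETP replicate 3. From thymic ETP to DN2 Trac had a value of -3.82 (0.001; lost with these groups alone, 0.0985), and from DN3 to DN4 a value of -3.47 (0.0142; lost with these groups alone, 0.301, and without induced DN3 replicate 1, 0.127, or 2, 0.0562). Natural Trac was at 0 in thymic ETP and DN3, so these values depend on the pseudocount and are no folds. Those from BM to thymic ETP start from BM levels of at most 10.9 FPKM and depend on it too. From DP to CD4 SP Trbc1 had a value of 1.29 (0.00151).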

How the results depend on the processing

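No result changed direction while called, in 1251 refits of called member comparisons: 1104 kept their call and 147 lost it. With a pseudocount of 0.1, 9 of 54 tests between induced and natural cells passed (14 as reported), and 21 of 66 induced steps (34 as reported). Trac in DP passed under it. Leaving out 1 library at a time gave 13 to 15 calls between induced and natural cells, 29 to 34 in natural steps, 31 to 35 in induced steps, 7 to 9 step differences and 12 to 12 contrasts of mature cells. With only the compared groups in a fit the first of these was 12, of which 6 were among the 14 reported; such fits have fewer libraries and fewer residual degrees of freedom. Quantile normalization gave 15, 37, 40, 10 and 12 calls, equal library totals 16, 34, 34, 8 and 12, and no filter 13, 32, 33, 8 and 12. Equal totals shifted the median of all genes by -0.132 in BM ETP against MPP and by no more than 0.1 elsewhere. Same-numbered induced and natural libraries of a stage did not pair: over 23 such pairs the correlation of deviations from group means ran from -0.04 to 0.05. Pairing between groups of the same source was not checked. Xist was 0.0559, 0.0707, 3.66 and 5.04 FPKM in HSC replicates 1 to 4. In MPP replicates 1 to 4 it was 0.0125, 0.149, 4.46 and 4.33 FPKM, so numbers may pair there. A replicate block gave 14 calls between induced and natural cells, 33 in natural steps, 34 in induced steps and 8 step differences. The 33 leave out the step from CD4 SP to mature T cells, where 1 of 6 members passed in the fit reported. The block could not be fitted for contrasts of mature cells, which carry 1 running number, so no paired analysis was possible there. Depth limits levels of a few FPKM, such as the gamma genes in DP, which rest on few fragments.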
